A study of Mus musculus with 4 samples.

Results

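Cadherins and protocadherins were examined in brain septal tissue of wild-type (WT) mice and of TCRb-/- mice, whose T cell receptor beta chain gene is disrupted. The genes were chosen by symbol, as every listed gene whose symbol starts with Pcdh or with Cdh and a digit, a rule that uses no measured value. They numbered 81 of the 15403 genes listed. Of these, 51 were clustered protocadherins (11 Pcdha, 21 Pcdhb and 19 Pcdhg genes) and 30 were not, namely 19 Cdh genes and 11 non-clustered protocadherins. One of the 81, Pcdhga8, was listed on 2 rows with identical values and was counted once.

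There were 4 libraries, 2 per genotype, each from pooled septal tissue of 4 to 5 mice, so that a replicate is a pool and not an animal. Each experiment, 1 and 2 as the labels name them, contributed a TCRb-/- and a WT library, and the replicate number of a library is its experiment. All animals had gone through restraint in cones (30 min, on 3 days), with tissue taken 1.5 h after the final session, so no unstressed mice were in either group. No source used here gives the strain, sex or age of the mice or how the TCRb allele was made.

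Cadherins are membrane proteins whose extracellular repeats bind calcium and adhere to cadherins on neighbouring cells. Classical cadherins connect to actin through catenins, and different neurons carry different type II cadherins, which is thought to help them sort and connect. The clustered protocadherins lie in 3 neighbouring arrays on chromosome 18. In the Pcdha and Pcdhg arrays each isoform has its own first exon, which carries the extracellular part and its own promoter, joined to constant exons shared by the array, whereas each Pcdhb gene is a single exon. Single neurons use a small and partly random set of these isoforms, apart from the C-type isoforms Pcdhac1, Pcdhac2, Pcdhgc3, Pcdhgc4 and Pcdhgc5, and the sets mark a neuron's own branches. The non-clustered delta protocadherins are regional adhesion molecules that signal through partners in the cytoplasm.

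The libraries held between 19988137 and 26210790 reads. Trbc2, a constant segment of the deleted receptor chain, gave 0 reads in each TCRb-/- library, a count that allows up to 0.122 and 0.150 CPM (reads scaled to a common library total), and 169 and 86 reads in the WT libraries. All 13 septum markers were read in every library, with summed levels of 261 to 308 CPM. The libraries differed in markers of neighbouring tissue. The 15 striatum markers summed to 6286 and 5631 CPM in the TCRb-/- and WT libraries of experiment 1 and to 1479 and 3336 CPM in those of experiment 2. All 15 were lowest in TCRb-/- replicate 2, so that this library stood apart. In tissue RNA of this kind, fewer cells of a type and less RNA per cell cannot be told apart.

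Levels of different genes were compared as CPM per kilobase of exon that no other annotated gene covers on either strand. Overlap with any neighbour shortens this length, to 1107 of 3034 nt for Pcdhb12, and so raises the level if reads there were counted. No source used here says whether reads in shared exons were counted, and for which isoform, so the levels of clustered isoforms are less certain than those of the other members. Pcdh8, a delta2 protocadherin known as an activity-induced regulator of surface N-cadherin, was the highest member at 26.7 ± 2.40 CPM per kb (SD, n = 4). Pcdh9, a delta1 protocadherin, followed at 15.7 ± 1.21, then Cdh22 at 11.2 ± 0.97 and Cdh13 at 11.1 ± 1.91. Pcdh8 did not overlap Pcdh9 across the 4 libraries, nor Pcdh9 Cdh22. From rank 3 to rank 12 every gene overlapped the next in order, namely Cdh22, Cdh13, Pcdhac2, Pcdhga8, Pcdhgc5, Pcdh17, Cdh8, Pcdh7, Cdh4 and Pcdh20. Of the 10 highest members 3 were clustered and 7 were not, and the median level was 0.755 CPM per kb over the clustered and 2.04 over the non-clustered genes. In CPM summed over genes, the clustered group took 19.1% to 22.1% of the members' total in the 4 libraries.

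The 250 bases before the annotated start are shown for 3 members, as RefSeq gives them for GRCm38.p6 on the strand of each gene. They are Pcdh8, the highest member, and Cdh8 and Pcdh17, a pair of abundant genes from the comparison of experiments below whose windows lie wholly before the gene in both RefSeq and GENCODE M21. Pcdh8 is at chr14:79771313-79771562 (minus strand), Cdh8 at chr8:99416472-99416721 (minus strand) and Pcdh17 at chr14:84443313-84443562 (plus strand), and capitals mark the letters TATAAA.
Pcdh8: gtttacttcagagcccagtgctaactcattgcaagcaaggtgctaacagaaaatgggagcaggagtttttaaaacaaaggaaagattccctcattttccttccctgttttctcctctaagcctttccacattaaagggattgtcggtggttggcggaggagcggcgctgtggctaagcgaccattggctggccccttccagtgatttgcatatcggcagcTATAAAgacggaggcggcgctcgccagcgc
Cdh8: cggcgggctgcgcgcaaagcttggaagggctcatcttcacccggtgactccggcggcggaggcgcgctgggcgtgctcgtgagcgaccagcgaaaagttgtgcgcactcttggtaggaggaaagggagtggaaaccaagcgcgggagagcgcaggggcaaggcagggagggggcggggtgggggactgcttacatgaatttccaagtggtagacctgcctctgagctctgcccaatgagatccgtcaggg
Pcdh17: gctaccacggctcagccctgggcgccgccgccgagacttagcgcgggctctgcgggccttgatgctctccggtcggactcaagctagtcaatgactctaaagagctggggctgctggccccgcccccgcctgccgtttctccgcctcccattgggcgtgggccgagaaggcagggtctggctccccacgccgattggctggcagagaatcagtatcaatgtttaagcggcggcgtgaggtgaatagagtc
Windows of 22 non-clustered members were searched, 1 per member. Some of them, such as those of Pcdh15, Cdh7, Cdh12 and Cdh18, lie inside the gene as GENCODE M21 gives it. The counts are thus not all of bases before the gene. The letters TATAAA, searched on both strands, were in 2 of these 22 windows (Pcdh8 and Pcdh15) and in 12.4% of all 32851 windows. The E-box CAGGTG, searched on both strands, was also in 2 of the 22 (Cdh7 and Pcdh15) and in 17.2% of all windows. The Pcdh8 window held 11 CG pairs, that of Cdh8 20 and that of Pcdh17 21, against a median of 6 over all windows. These are counts of letters and show no binding.

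Among type I classical cadherins, Cdh4 (R-cadherin) and Cdh2 (N-cadherin, the main neural cadherin of synaptic junctions) had the highest CPM. Per kilobase Cdh4 lay above Cdh2 in every library, with means of 5.19 and 3.75 CPM per kb. Cdh4 stood at 39.5 and 34.9 CPM in TCRb-/- (replicate 1, then replicate 2) and at 41.1 and 35.2 CPM in WT. Cdh2 stood at 36.3 and 29.0 CPM in TCRb-/- and at 29.7 and 26.1 CPM in WT. Both were lower in experiment 2 than in experiment 1 within each genotype, while the genotypes overlapped. Cdh15 (M-cadherin), best known from muscle, read 18.3 and 16.5 CPM in TCRb-/- and 14.1 and 14.8 CPM in WT, so that both TCRb-/- libraries lay above both WT libraries. Its mean per kilobase, 4.89 CPM per kb, lay between those of Cdh4 and Cdh2. Cdh1 (E-cadherin) and Cdh5 (VE-cadherin, of endothelium) were among 11 annotated members without a listed row, and their levels are not given here.

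The 12 type II cadherins had mean levels of up to 48.2 CPM, that of Cdh8, with a median of 9.45 CPM. Cdh8 read 58.0 and 55.9 CPM in the TCRb-/- and WT libraries of experiment 1 and 39.3 and 39.7 CPM in those of experiment 2. Cdh22, the most abundant type II cadherin per kilobase, read 46.8 and 39.9 CPM in TCRb-/- and 41.0 and 38.7 CPM in WT, with overlapping genotypes. Cdh13 (T-cadherin), which is anchored by a lipid and lacks the catenin-binding tail, had between 2063 and 3708 reads per library, the most of any member in 3 of the 4 libraries. In TCRb-/- replicate 2, Pcdh8 had more, with 2221. Cdh23, whose protein forms the tip links of hair cells together with that of Pcdh15, was low, at 12 to 25 reads per library. Pcdh15 itself read 5.98 and 4.05 CPM in TCRb-/- and 4.81 and 3.67 CPM in WT.

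The delta protocadherins included the most abundant members. Pcdh8 stood at 122.6 and 111.1 CPM in TCRb-/- and at 103.4 and 100.5 CPM in WT, and Pcdh9 at 114.3 and 101.9 CPM against 111.7 and 96.9 CPM. Pcdh8 was higher in both TCRb-/- libraries than in either WT library, whereas the Pcdh9 genotypes overlapped. Pcdh8 shares 436 nt of exon with Gm9748 on the opposite strand, and reads of the pair cannot be told apart without strand. Pcdh17 read 94.9 and 71.6 CPM in TCRb-/- and 93.6 and 83.6 CPM in WT, lower in both libraries of experiment 2. Pcdh7, a delta1 protocadherin, varied little, from 41.9 to 49.0 CPM. Pcdh20 varied from 25.98 to 29.9 CPM.

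**Figure D1:**
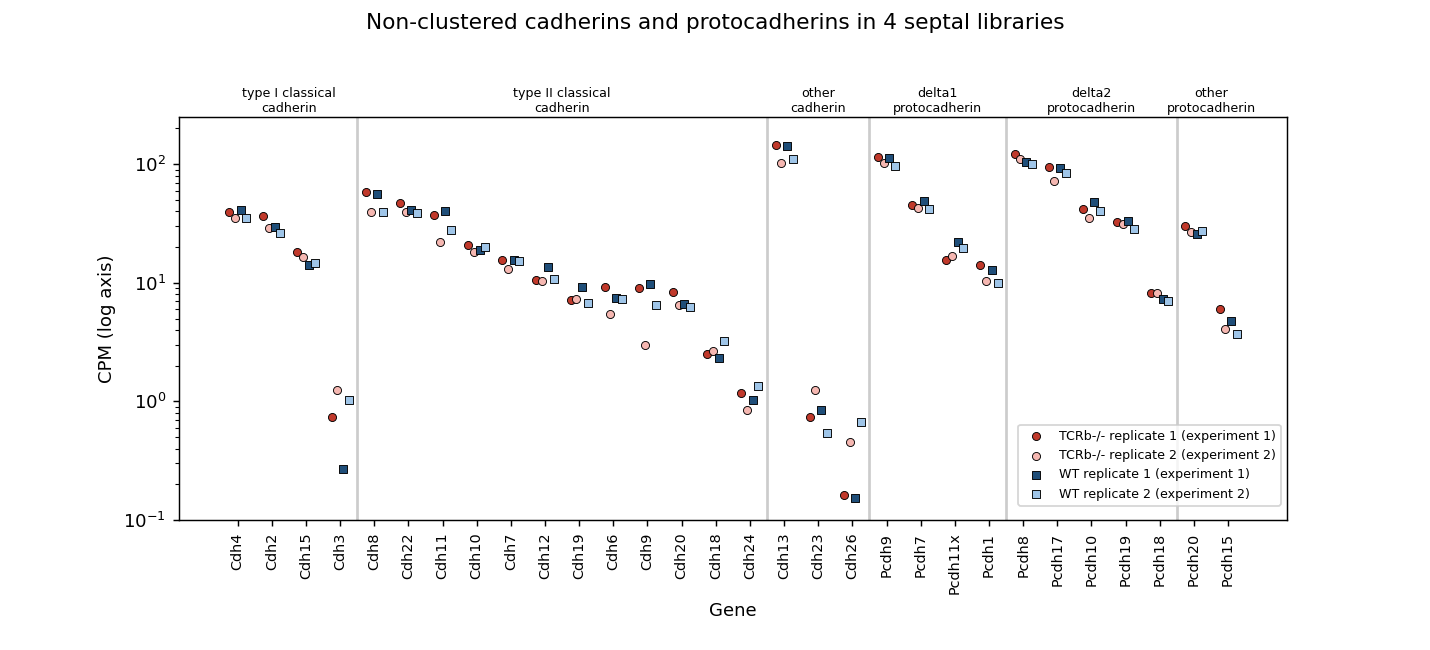
CPM (log axis) of the 30 non-clustered members in each library, ordered by subfamily and mean level, circles for TCRb-/-, squares for WT, dark for experiment 1 and light for experiment 2. Cdh8 lies at 58.0 and 55.9 CPM in experiment 1 and at 39.3 and 39.7 CPM in experiment 2.

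In the Pcdha array the C-type isoform Pcdhac2 made up most of the reads. It took 62.3% and 64.1% of the Pcdha reads in TCRb-/- replicates 1 and 2 and 59.4% and 61.2% in WT, of 892 to 1415 reads per library. In CPM it read 35.8 and 29.3 in TCRb-/- and 30.7 and 24.4 in WT. The share thus differed little between libraries. In log2(CPM + 1), the level was lower in experiment 2 in TCRb-/- and WT (-0.28 and -0.32). It was higher in TCRb-/- in experiments 1 and 2 (0.22 and 0.25), while the genotypes overlapped over both. Neither difference passed an adjusted p of 0.05 in limma with all libraries. Pcdha12 had the second highest mean, at 4.68 and 3.25 CPM in TCRb-/- and 5.53 and 2.505 CPM in WT. In experiment 2 Pcdha9, named with its values known, lay above it at 3.55 CPM in TCRb-/- and 3.76 CPM in WT. The other C-type isoform of the array, Pcdhac1, averaged 1.64 ± 0.27 CPM in TCRb-/- and 1.66 ± 0.51 CPM in WT (SD, n = 2), within the range of the alternate isoforms. Pcdha4 and Pcdha8 had no listed row.

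The Pcdhb genes were spread more evenly. Pcdhb9 led with 14.3% to 19.0% of the Pcdhb reads, and the median member took 3.16% to 3.86%. Pcdhb9 read 13.1 and 12.9 CPM in TCRb-/- and 10.8 and 11.7 CPM in WT, and Pcdhb7 read 7.85 and 7.25 against 7.10 and 7.02 CPM. In both, the TCRb-/- libraries lay above the WT libraries.

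In the Pcdhg array Pcdhgc5 led by reads in 3 of the 4 libraries. In TCRb-/- replicate 2, Pcdhga8 had 366 reads and Pcdhgc5 342, with overlapping intervals of their shares. The intervals also overlapped in WT replicate 2 (22.2 to 25.97 for Pcdhgc5 and 19.6 to 23.3 for Pcdhga8). Per kilobase of unshared exon Pcdhgc5 lay above Pcdhga8 only in TCRb-/- replicate 1 (10.6 against 7.1 CPM per kb). The means were 6.77 for Pcdhgc5 and 8.405 for Pcdhga8. The C-type isoform Pcdhgc5 took 35.7% and 30.3% of the Pcdhg reads in the TCRb-/- and WT libraries of experiment 1 (exact 95% intervals 34.05 to 37.3 and 28.7 to 31.9). Its share in those of experiment 2 was 21.9% (19.9 to 24.1) and 24.03% (22.2 to 25.97). Pcdhga8 moved the other way, with 10.8% and 14.7% in experiment 1 and 23.5% and 21.4% in experiment 2. The intervals of the experiments did not overlap for either isoform, and they cover counting error only. In CPM, Pcdhga8 read 14.8 and 18.1 in the TCRb-/- and WT libraries of experiment 1 and 18.3 and 19.0 in those of experiment 2, so its share moved more than its level. Pcdhgc3, the other listed C-type isoform of the array, read 7.28 and 5.75 CPM in TCRb-/- and 7.78 and 5.23 CPM in WT. Pcdhgc4 had no listed row.

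**Figure D2:**
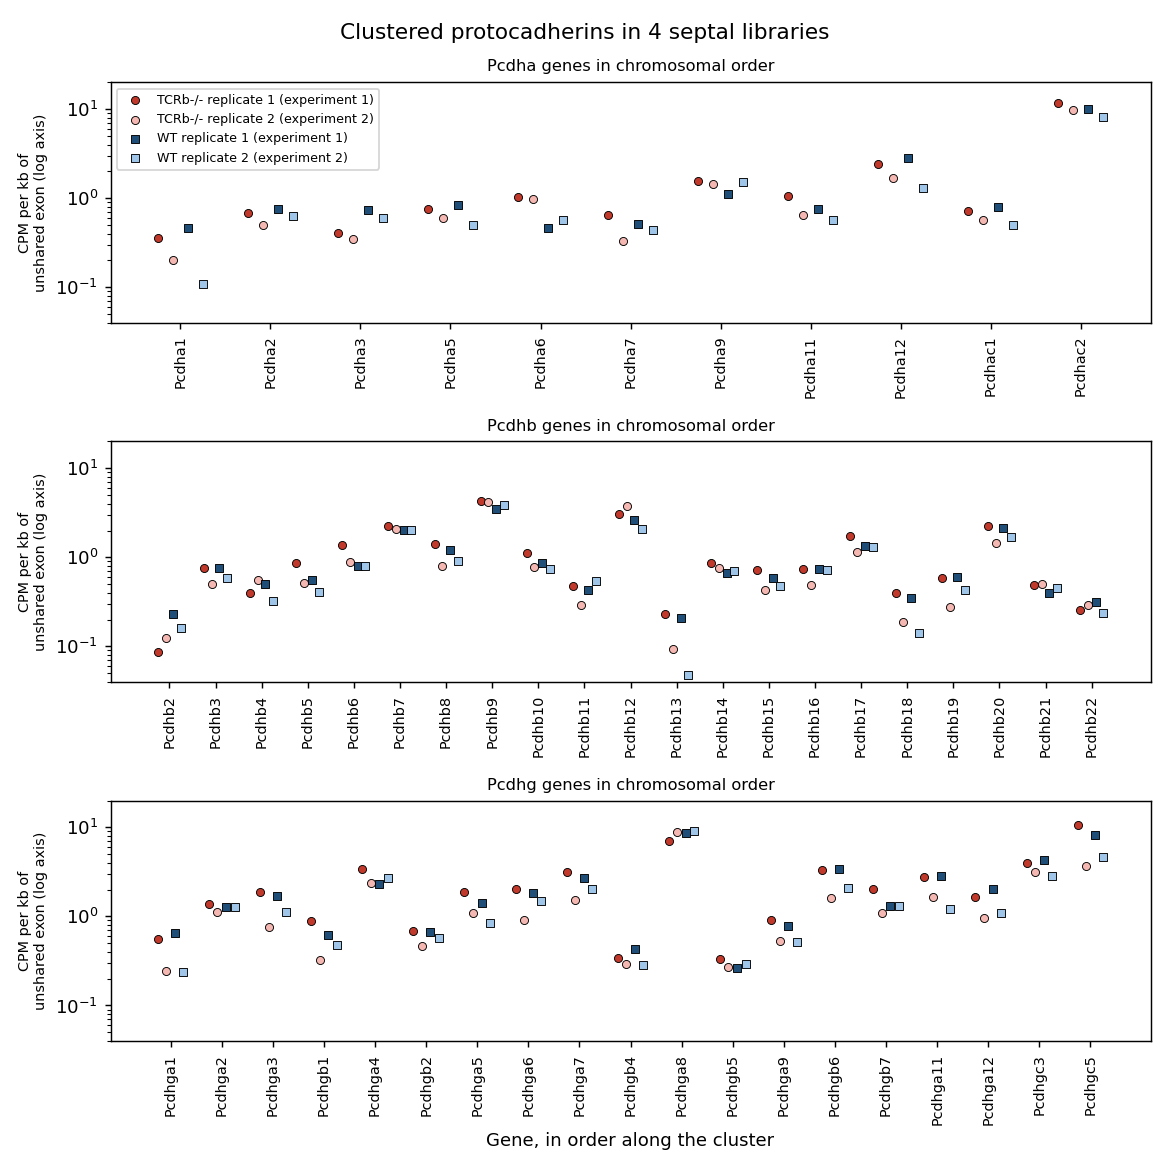
CPM per kb of unshared exon (log axis) of the 51 clustered protocadherins in each library, in chromosomal order within the Pcdha, Pcdhb and Pcdhg arrays, symbols and colours as for the non-clustered members. Pcdhac2, Pcdhga8 and Pcdhgc5 are the 3 clustered genes among the 10 highest members per kilobase.

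The comparison of TCRb-/- with WT is the one the series was designed for. No member was called. Of the 75 members that reached a mean of 1 CPM and were tested (48 clustered, 27 not), 0 had a limma adjusted p under 0.05, against 0% of all 13906 genes tested. At an unadjusted p under 0.05, 1 member passed (Pcdha6), against 0.309% of all genes. The median difference, TCRb-/- minus WT in log2(CPM + 1), was 0.039 for clustered and -0.028 for non-clustered members, beside 0.001 for all genes. The clustered median was 0.127 in experiment 1 and -0.053 in experiment 2, and 36 of the 75 members differed in the same direction in both experiments (48%, against 51.55% of all genes). The sign of both medians depended on single libraries. Without TCRb-/- replicate 1 the clustered median was -0.156 and without TCRb-/- replicate 2 it was 0.242, and the non-clustered median was -0.10 and 0.146. In these fits TCRb-/- has a library of only 1 experiment, so the medians also hold part of the experiment difference.

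Pcdha6, an alternate Pcdha isoform, was the member with the smallest unadjusted p. It read 1.95 and 1.85 CPM in TCRb-/- and 0.878 and 1.07 CPM in WT, from 23 to 48 reads per library. The genotypes did not overlap, and the difference was 0.56 ± 0.21 (SE), with a limma unadjusted p of 0.0403 and an adjusted p of 1. Pcdha6 overlaps annotated neighbours on both strands, so its count is uncertain. Pcdha3 lay the other way, at 1.02 and 0.851 CPM in TCRb-/- and 1.83 and 1.48 CPM in WT, a difference of -0.46 ± 0.22 with a limma adjusted p of 1. Pcdha3 had 17 to 48 reads per library. Pcdha6 and Pcdha3 were each named as 1 of the 3 members with the smallest unadjusted p in its direction. Their opposite directions thus follow from that choice, and neither passed the threshold.

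Among the non-clustered members, Pcdh11x, an X-linked delta1 protocadherin, was lower in both TCRb-/- libraries, at 15.4 and 16.8 CPM against 22.05 and 19.6 CPM in WT. The difference was -0.35 ± 0.16, with a limma adjusted p of 1. Pcdh10, a delta2 protocadherin that binds regulators of actin, read 42.0 and 35.1 CPM in TCRb-/- and 47.7 and 40.7 CPM in WT. It was lower in TCRb-/- within each experiment (-0.18 and -0.21), while the genotypes overlapped over both. Pcdh8 was higher by 0.19 ± 0.12 and Cdh15 by 0.25 ± 0.16, both with a limma adjusted p of 1. Pcdhb12 was higher by 0.40 ± 0.22, at 3.38 and 4.15 CPM against 2.94 and 2.28 CPM, and shares 1927 nt with Gm37446 on the opposite strand.

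Both TCRb-/- libraries lay above both WT libraries for 10 of the 75 members, 7 of them clustered, against 9.77% of all genes. Both lay below for 3, namely Cdh12, Pcdh11x and Pcdha3, against 8.04%. Cdh12 was named after its values were seen. With the experiment as a block, 0 members passed an adjusted p of 0.05 (0.0144% of all genes). At an unadjusted p under 0.05 in that limma fit, 5 passed (Pcdh11x, Pcdh8, Pcdha6, Pcdhac2 and Cdh9), against 5.64% of all genes, a share close to theirs of 6.67%. In each experiment TCRb-/- lay above WT for 13 of 13 choroid plexus markers, 0 of them past the limma threshold and 1 with the block, and their part in the members' values was not tested. With 2 libraries a group, an exact permutation test of 1 gene cannot give a p below 0.333, and p-values measure the spread between pools. In the fit with genotype as the only term, that spread includes the difference between the experiments.

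**Figure D3:**
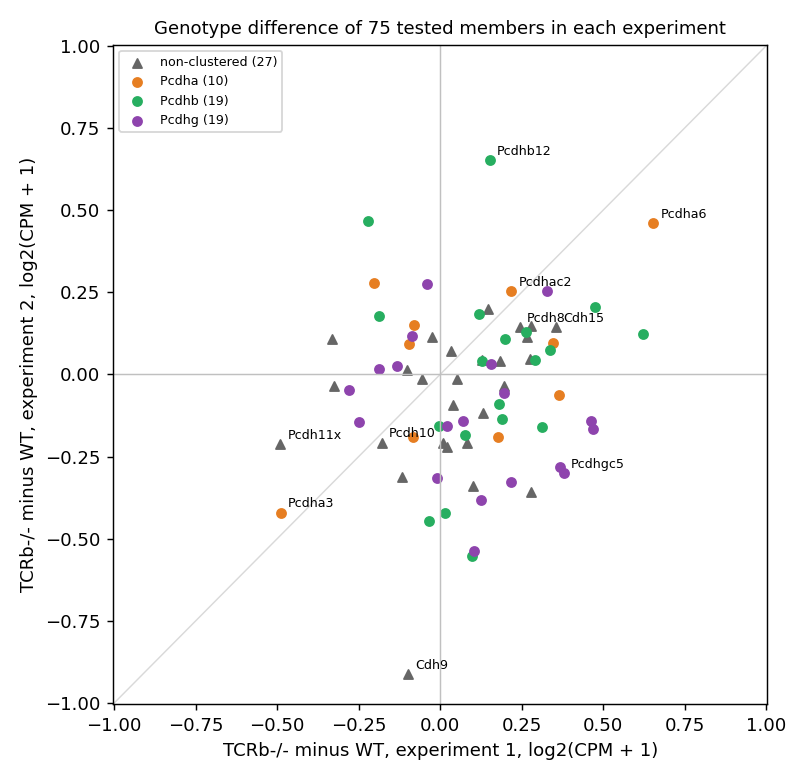
Difference TCRb-/- minus WT in log2(CPM + 1) of the 75 tested members in experiment 1 (x axis) and experiment 2 (y axis), 1 point per gene, coloured by group, with the diagonal of equal differences. Pcdha6 is positive and Pcdha3 and Pcdh11x are negative in both experiments, whereas Pcdhgc5 lies at 0.38 and -0.30.

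Experiment 2 was compared with experiment 1 to show how far pools of the same genotype lay apart. Members were mostly lower in experiment 2, the Pcdhg genes by most. Of the 75 members, 69 (92%) had a negative difference, experiment 2 minus experiment 1, against 53.99% of all genes. The median difference was -0.302 for clustered and -0.184 for non-clustered members, beside -0.030 for all genes. The order of the groups turned in some alternatives, with -0.133 and -0.140 at a pseudocount of 5 CPM and -0.126 and -0.166 among genes of at least 10 CPM. By group it was -0.534 for Pcdhg, -0.300 for Pcdha and -0.243 for Pcdhb. In 49 members both libraries of experiment 2 lay below both of experiment 1, against 37.2% of all genes, and in 2 (Pcdhga8 and Cdh18, of which Cdh18 was named with its values known) they lay above, against 30.1%.

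By test, 13 of the 75 members fell from experiment 1 to experiment 2 and 0 rose (17.3% of members), against 14.7% of all genes called lower, 8.95% called higher and 23.7% called in either direction. They were 9 of the 48 clustered and 4 of the 27 non-clustered members, and the difference between those shares was not tested. Within the clustered group they were 7 of 19 Pcdhg, 1 of 10 Pcdha and 1 of 19 Pcdhb genes. The share called lower is close to the background, and nothing is read from it about the members. The count was 4 without TCRb-/- replicate 1 and 3 without WT replicate 1. Without TCRb-/- replicate 2 it was 10, with Cdh9, Pcdhb18, Pcdhga1, Pcdhga3 and Pcdhga7 lost and Pcdhac2 and Pcdhga5 gained. Cdh8, Cdh13 and Pcdhgc5 passed with any single library left out. When the variance was moderated without a trend, 7 passed, Cdh8 and Pcdhgc5 (limma adjusted p = 0.0465 each) among them, while Cdh13 (0.0542) and Cdh11 (0.0559) did not. With the block and no trend, an alternative chosen after seeing the data, none of the 13 passed, and 0 genes in all.

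Pcdhgc5 had the largest difference of the members. It read 48.9 and 37.4 CPM in the TCRb-/- and WT libraries of experiment 1 and 17.1 and 21.3 CPM in those of experiment 2. The mean was 2.25 times as high in experiment 1, and the difference was -1.12 ± 0.15 with a limma adjusted p of 0.00573. Both libraries of experiment 2 were low, and TCRb-/- lay above WT in experiment 1 and below it in experiment 2. Pcdhgc5 lies on chromosome 18 from 37819513 to 37841873 (plus strand, GRCm38, GENCODE M21) and shares 1530 nt of exon with Gm38182 on the same strand, so reads of the pair may have been split or dropped.

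The other Pcdhg genes that fell belong to the alternate a and b types. Pcdhgb6 read 8.62 and 8.70 CPM in experiment 1 and 4.15 and 5.41 CPM in experiment 2 (TCRb-/- first), a difference of -0.75 ± 0.16. Pcdhga12 read 6.87 and 8.36 CPM in experiment 1 and 3.95 and 4.47 CPM in experiment 2. Pcdhga3 read 4.88 and 4.39 against 2.00 and 2.91 CPM, and Pcdhga11 averaged 3.52 ± 0.09 CPM in experiment 1 and 1.79 ± 0.38 CPM in experiment 2 (SD, n = 2). In each of these the experiments did not overlap, and the limma adjusted p ran from 0.0168 for Pcdhgb6 to 0.0317 for Pcdhga3. Pcdhga1 was near 1 CPM, at 1.59 and 1.83 against 0.7004 and 0.671 CPM, from only 14 and 15 reads in experiment 2. Pcdhga7, named after its values were seen, completed the 7 with a difference of -0.62 ± 0.17.

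In the other arrays, Pcdha12 fell by 0.66 ± 0.18 (limma adjusted p = 0.0347) and Pcdhb18 by 0.65 ± 0.19 (limma adjusted p = 0.0447). Pcdhb18 read 1.99 and 1.76 CPM in experiment 1 and 0.951 and 0.716 CPM in experiment 2, and with the block its limma adjusted p was 0.0557. Pcdhac2 was lower by 0.30 ± 0.12 in experiment 2 and did not pass (limma adjusted p = 0.110), nor did Pcdhgc3 with -0.39 ± 0.14 (limma adjusted p = 0.0838). Without TCRb-/- replicate 2, Pcdhac2 passed (-0.43, limma adjusted p = 0.0458). With all libraries, Pcdhgc5 alone of the 4 listed C-type isoforms was called. Pcdhb9 and Pcdhb7 differed by 0.047 and -0.057, with limma adjusted p of 0.831 and 0.794. Pcdhga8 differed by 0.18 ± 0.13, the opposite sign from the rest of its array, and did not pass (limma adjusted p = 0.336).

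Of the non-clustered members, the type II cadherins Cdh9, Cdh11 and Cdh8 and T-cadherin (Cdh13) fell. Cdh9 read 8.99 and 9.69 CPM in experiment 1 and 3.00 and 6.53 CPM in experiment 2, with TCRb-/- replicate 2 the lowest. Its difference was -0.91 ± 0.27 with a limma adjusted p of 0.0461, and without TCRb-/- replicate 2 it was -0.46 with 0.111. Cdh11 read 37.3 and 40.6 CPM in experiment 1 and 22.3 and 27.9 CPM in experiment 2, a difference of -0.62 ± 0.12 (limma adjusted p = 0.0126). Cdh8 fell by 0.52 ± 0.08 (limma adjusted p = 0.00663) and was nearly level between genotypes in each experiment. Cdh13 read 145.3 and 141.5 CPM against 103.2 and 110.2 CPM, a difference of -0.42 ± 0.07 (limma adjusted p = 0.00775). These 4 genes lie on chromosomes 8 and 15, Cdh8 from 99024471 to 99416471, Cdh11 from 102632095 to 102785642 and Cdh13 from 118283733 to 119324921 on chromosome 8, and Cdh9 from 16728756 to 16857094 on chromosome 15 (GRCm38, GENCODE M21).

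No non-clustered protocadherin passed in the fit with experiment as the only term, although all 11 tested had a negative difference. With quantile normalization those of Pcdh11x and Pcdh20 were positive, at 0.073 and 0.043. Pcdh17 came nearest, with -0.28 ± 0.09 and a limma adjusted p of 0.0507. With genotype as a block it passed (limma adjusted p = 0.0453), and without TCRb-/- replicate 2 its difference was -0.17 (limma adjusted p = 0.281). That fit also called 13 members, of which 11 were shared, with Pcdh17 and Pcdhga5 (named with its values known) in place of Pcdhb18 and Pcdhga1, against 15.4% of all genes called lower. Pcdh9 differed by -0.18 ± 0.07 (limma adjusted p = 0.0805) and Pcdh8 by -0.090 ± 0.095 (limma adjusted p = 0.521). Cdh4 and Cdh2 differed by -0.20 ± 0.08 and -0.25 ± 0.12, with limma adjusted p of 0.116 and 0.160.

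**Figure D4:**
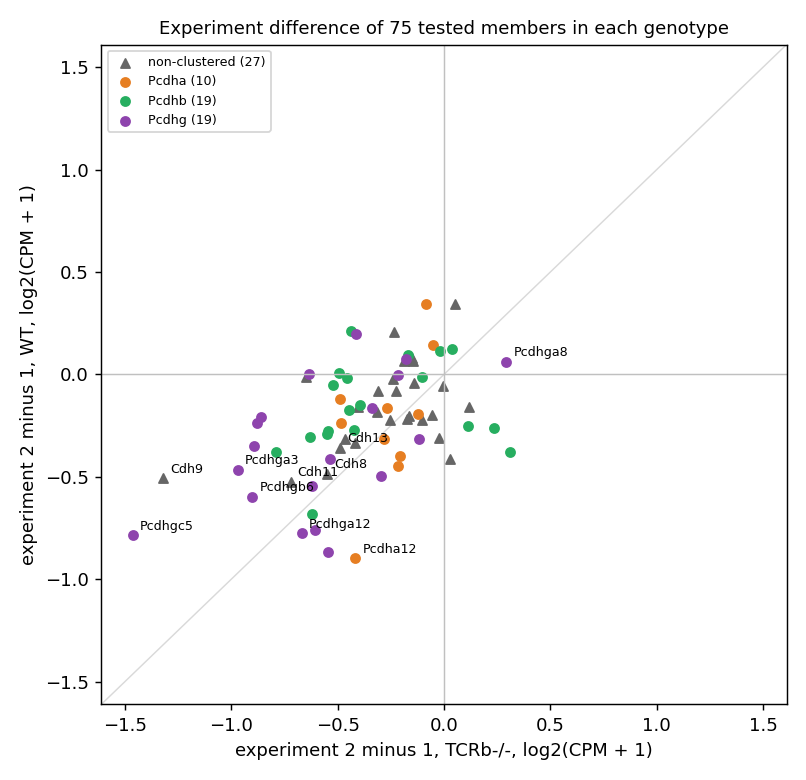
Difference experiment 2 minus experiment 1 in log2(CPM + 1) of the 75 tested members in TCRb-/- (x axis) and in WT (y axis), 1 point per gene, coloured by group, with the diagonal of equal differences. Most points lie in the lower left, Pcdhgc5 farthest, and Pcdhga8 is above 0 in both genotypes.

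**Figure D5:**
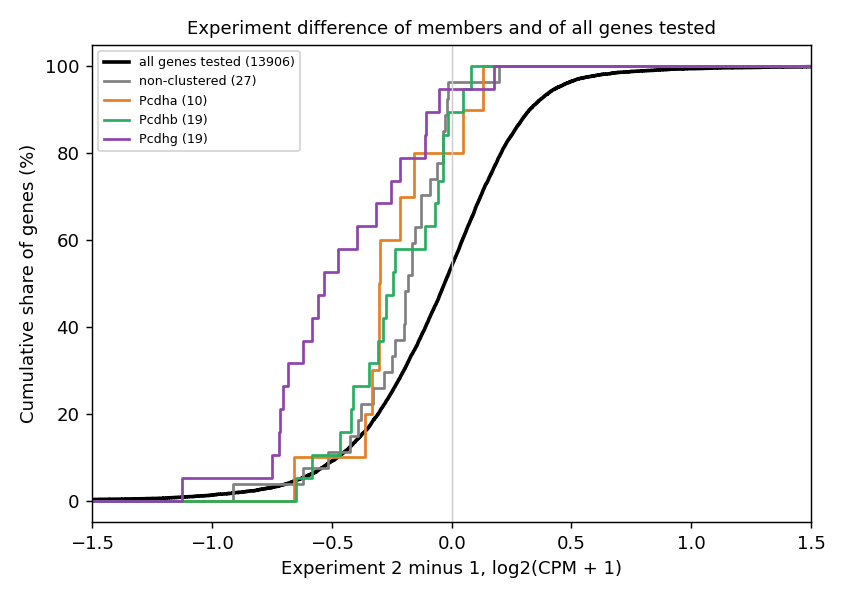
Cumulative share (%) of genes up to each difference experiment 2 minus experiment 1 in log2(CPM + 1), for the 13906 genes tested and for non-clustered, Pcdha, Pcdhb and Pcdhg members. The Pcdhg curve lies farthest to the left over most of its range, with a median of -0.534 beside -0.030 for all genes.

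Many members have long transcripts, and over all genes the experiment difference went with transcript length. Across 13574 genes, which are not independent replicates and share the 4 libraries, Spearman's rho between the longest annotated transcript and the difference was -0.447. The members' median longest transcript was 4727 nt against 3426 nt, and across the 75 members rho was -0.082. It was -0.103 across the 48 clustered and -0.248 across the 27 non-clustered members. The part of length in the members' differences was not tested.

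Marker lists of other tissue also moved with experiment. Over all genes 14.7% were called lower and 8.95% higher in experiment 2. Of the 15 striatum markers, 15 fell in experiment 2. Of 13 choroid plexus markers 12 rose, with sums of 2159 and 1321 CPM in the TCRb-/- and WT libraries of experiment 1 and 6929 and 4213 CPM in experiment 2. Of 11 thalamus markers 6 rose, with sums of 760 and 749.5 CPM in experiment 1 and 1802 and 1228 CPM in experiment 2. Of 12 markers of cortex and hippocampus 6 fell, with sums of 284 and 359 CPM in experiment 1 and 126 and 111 CPM in experiment 2. No marker of these 4 lists was at 0 reads in any library. The other lists held fewer called genes. Of 13 septum markers 1 fell and 2 rose, and of 12 astrocyte markers 2 fell. Of 12 oligodendrocyte markers 1 fell and 1 rose, as did 1 and 1 of 8 oligodendrocyte precursor markers. Of 7 ependymal markers 2 rose, and of 9 meningeal fibroblast markers 1 rose. Of 10 microglia markers 1 fell, and of 9 endothelial markers 0 were called. The part of tissue composition in the members' differences was not tested.

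Genes that act with the members were read in the same fits. No list held a gene that limma called by genotype. Of 17 cytoplasmic partners, 8 fell in experiment 2 and 1 rose, against 14.7% and 8.95% of all genes. Among them Ptk2b, a focal adhesion kinase that clustered protocadherins bind and inhibit, fell by 0.94 ± 0.09 (limma adjusted p = 0.00263). Cyfip2 and Abi2, subunits of the WAVE complex that drives actin branching, fell by 0.65 ± 0.07 and 0.62 ± 0.08. Pdcd10 was the one that rose, by 0.29 ± 0.07 (limma adjusted p = 0.0237). Of 8 catenins tested, 1 fell (12.5%, against 14.7% of all genes). It was Ctnnd2 (delta-catenin, which binds the juxtamembrane part of classical cadherins), from 159.1 and 165.8 CPM in experiment 1 to 113.4 and 114.8 CPM in experiment 2. Beta-catenin (Ctnnb1), the link from the cadherin tail to alpha-catenin, differed by -0.057 ± 0.10 (limma adjusted p = 0.713).

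Of 17 regulators of the clustered loci, 4 fell (23.5%) and 0 rose, against 14.7% of all genes called lower and 23.7% called in either direction. The difference between these shares was not tested. Pds5a, which binds cohesin, fell by 0.69 ± 0.15 (limma adjusted p = 0.0158). Setdb1, a histone methyltransferase that acts on the clustered locus, fell by 0.50, and Dnmt3a, a DNA methyltransferase, by 0.38 ± 0.08. Ctcf, the factor that brings isoform promoters to their enhancers, read 71.4 and 69.6 CPM in experiment 1 and 55.6 and 65.5 CPM in experiment 2, and its difference of -0.22 ± 0.09 did not pass (limma adjusted p = 0.114). Of 13 other cadherin superfamily genes tested, 3 fell (Cdhr1, Clstn1 and Celsr2) and 1 rose, against 14.7% and 8.95% of all genes. The one that rose was Cdhr2, by 1.29 ± 0.20, from 0.529 and 0.954 CPM to 3.15 and 3.31 CPM. Of 11 proteases and processing enzymes of cadherins, 3 fell (27.3%) and 0 rose, against 14.7% and 8.95% of all genes. The difference was positive, though not called, in 5 of the 11. Aph1b fell by 0.62 ± 0.11 (limma adjusted p = 0.00995) and Furin by 0.55 ± 0.11 (limma adjusted p = 0.0134), while the sheddase Adam10 differed by -0.24 ± 0.10 (limma adjusted p = 0.125).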

How the data were processed

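RNA from cleared cytoplasmic lysate was made into libraries with the SMARTer Ultralow Input kit and sequenced on an Illumina HiSeq2500, per the labels' protocols. That kit does not mark strand. Per the submitters' processing notes, HISAT2 2.1.0, SAMtools 1.3, HTSeq 0.9.1, limma 3.46.0 in R 4.0.5 and the build mm10 were used. No source used here gives the counting options or the annotation. The deposited values were log2 of CPM with 0.5 added to the reads and 1 to the total, and whole reads were recovered from 100% of them within 0.1 reads. Reads were expressed as log2(CPM + 1), which understates changes at low levels. The 13906 genes averaging 1 CPM or more were fitted with limma 3.58.1 in R 4.3.3 (empirical Bayes with a trend, two-sided, Benjamini-Hochberg, threshold 0.05), once with genotype and once with experiment as the only term. The fit was also run on simulated reads with known genotype changes and no difference between experiments. That run does not cover the spread between experiments seen in these data. Other steps used Python 3.11.15. Coordinates and lengths came from GENCODE M21 (GRCm38), and promoter windows from the RefSeq table of GRCm38.p6.

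The replicate number is the labelled experiment, so the numbers pair the libraries. Across genes, same-numbered libraries deviated together from their genotype means (correlation 0.719). Replicates differed by more than counting noise (chi-square per degree of freedom of 53.0 and 30.7). The members, gene lists and tests were chosen with earlier results of these data known. Named with values were members past the threshold in any of these fits (up to 6 per subfamily and direction), the 2 highest in CPM per subfamily, the 3 with the smallest unadjusted genotype p in each direction, the C-type isoforms, Cdh1, Cdh2, Cdh5 and Cdh13, and up to 3 called genes per partner list and direction. Ctnnb1, Ctcf and Adam10 were named outside that rule, and 1 gene of a partner list is not reported here. Count models were not run, since the deposited unit is a log value. Intervals of shares are exact Clopper-Pearson intervals at 95%, and, as reads carry no molecular identifiers, intervals and floors cover counting error only.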

Additional observations from a re-analysis of the deposited data

Results flagged for a closer look

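Pcdhgc5, the most abundant C-type Pcdhg isoform, had genotype differences of opposite sign in the experiments. TCRb-/- minus WT in log2(CPM + 1) was 0.38 in experiment 1 and -0.30 in experiment 2. With 1 library of each genotype in each experiment, the difference between these values was not tested. The reads behind them were 1203 and 980 in experiment 1 and 342 and 476 in experiment 2 (TCRb-/- first). Striatum markers followed the same order, with 6286 and 5631 CPM in experiment 1 and 1479 and 3336 CPM in experiment 2, and their part in the Pcdhgc5 values was not tested.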

How the results depend on the processing

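No member was called by genotype under any alternative that was run. These were pseudocounts of 0.1 and 5 CPM, no filter, a mean of at least 10 CPM, median-of-ratios scaling, quantile normalization, moderation without a trend, the replicate block, each library left out, and the block without a trend, which was chosen after seeing the data. The count of members called by experiment was 13 with all libraries and 13 with the replicate block. It was 5 with a mean of at least 10 CPM (of 23 members tested), 8 with quantile normalization, 7 without a trend, 0 with the block and no trend, and 3 to 12 with a library left out. Over all genes the calls went from 3292 to 630 when the trend was dropped, and to 0 when the block was added as well. The clustered experiment median of -0.302 was -0.133 with a pseudocount of 5 CPM and -0.126 with a mean of at least 10 CPM, where the non-clustered median was -0.140 and -0.166. The non-clustered genotype median of -0.028 ranged from -0.10 to 0.146 with a library left out, in fits that also hold part of the experiment difference. No called experiment difference of a named gene changed sign, whereas small uncalled ones did, such as that of Cdh15, from -0.038 to 0.066 with quantile normalization and to 0.140 without TCRb-/- replicate 1. Of 282 experiment differences of named genes in the alternatives with all libraries, 26 lost and 3 gained their call. The 282 include differences that were not called in the main fit and so had no call to lose. Apart from Pcdhb18, Pcdhga1, Pcdh17 and Pcdhga5, the block changed no member's call. Depth limits the low isoforms, since 6 members under a mean of 1 CPM were not tested and Pcdhga1 had 14 and 15 reads in experiment 2.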
